A study of Mus musculus with 4 samples.

Results

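The 9 genes described here encode core components of the PI3K, AKT and mTOR pathway: Pik3cd, Pik3r1, Inpp5d, Akt1, Akt2, Mtor, Rptor, Rictor and Tsc1. They were picked by name from the 22672 entries of the deposited count table that carry a gene name, and all 9 passed the filter on low counts. RNA was sequenced in 4 libraries from cultured splenic T cells of Pmel mice, whose transgenic T cell receptor recognises a peptide of the pigment cell protein gp100. 2 libraries were labelled SphK1 -/-, from Pmel mice deficient in sphingosine kinase 1, and 2 were labelled WT control, from Pmel mice. Both groups received 1 µg/ml of that peptide together with 100 U/ml of IL-2 and were collected after 72 h. The sources used here give neither the age and strain of the mice nor the form of the knockout allele, nor whether cells were pooled. Nor is it stated that the libraries of a genotype derive from different mice. The p-values below thus describe the spread between these samples alone, and that spread may be technical.

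In T cells, the antigen receptor, costimulatory receptors and the IL-2 receptor activate class I PI3K, which phosphorylates a membrane lipid to PIP3. PIP3 recruits the kinase AKT to the membrane, and AKT relieves the block that the TSC complex places on the small GTPase Rheb, so that the kinase complex mTORC1 becomes active. The pathway is known for driving growth, glycolysis and effector differentiation of activated T cells, and lipid phosphatases restrain it.

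Total counts were 50538355 and 53640611 in the libraries labelled SphK1 -/-, against 44277592 and 46449606 in the WT control libraries. Sphk1 itself ran against the labels, with 35 and 18 reads in the libraries labelled SphK1 -/- and 2 and 4 reads in the WT control libraries (log2 fold change 3.12 ± 0.66, SE; adjusted p = 0.0233 in edgeR). That call was lost in 5 of 12 alternatives, among them DESeq2 (adjusted p = 0.068) and the fit without the first library labelled SphK1 -/- (0.239). Groups are therefore named by their labels and every direction rests on those labels. The cells had the markers of cytotoxic T cells: Cd8a and Cd8b1 summed to 1099 and 1157 CPM (counts scaled to the TMM-normalised library size) in the libraries labelled SphK1 -/- and to 1006 and 1266 CPM in the WT control libraries. The 7 general T cell markers summed to 2550 and 2740 CPM in the libraries labelled SphK1 -/-, against 3143.5 and 2962 CPM in the WT control libraries, and none of them passed in edgeR. At an unadjusted p below 0.05, Cd28 (adjusted p = 0.0737) and Cd247 (adjusted p = 0.204) were lower. Cd4 stayed between 16.4 and 38.3 CPM over the 4 libraries. The 5 B cell markers summed to 299.5 and 144.3 CPM in the libraries labelled SphK1 -/-, against 135.8 and 142.3 CPM in the WT control libraries. The 5 natural killer markers summed to 79.0 and 50.4 CPM against 48.0 and 32.6 CPM, with Klra8 at 0 in every library. The 4 macrophage markers analysed summed to 24.6 and 15.5 CPM against 9.03 and 11.002 CPM, and 1 marker of each of these 3 lists rose. The 4 dendritic cell markers summed to 2.43 and 1.61 CPM against 0.852 and 0.857 CPM, with 1 riser, and the 4 neutrophil and mast cell markers analysed summed to 66.5 and 35.9 CPM against 51.8 and 47.8 CPM, with none. In bulk samples, fewer cells of a type and less RNA per cell cannot be told apart. The part of these other cells in the results below was not tested.

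Of the 9 members, 1 passed the threshold, an adjusted p below 0.05 in edgeR's quasi-likelihood test with Benjamini-Hochberg adjustment over all 12758 tested genes. It was Akt2, which was higher in the libraries labelled SphK1 -/-. Over all tested genes 6.75% passed, 6.0% higher and 0.752% lower. The median log2 fold change (libraries labelled SphK1 -/- over WT control) was −8.45e-05 over the members and −0.021 over all tested genes. The other 8 members did not pass, 0 of them had an unadjusted p below 0.05 and DESeq2 called 0. Over all tested genes, 10.5% were higher and 4.38% lower at an unadjusted p below 0.05, and DESeq2 called 7.05% higher and 1.12% lower. The 95% intervals of the fold changes of these 8 members lay between 0.710 and 1.33. The CPM values of the groups did not overlap for 5 of the 9 members, and they did not overlap for 44.8% of all tested genes. In 3 of the 5 both libraries labelled SphK1 -/- were the higher ones, as in 21% of all tested genes, and in 2 they were the lower ones, as in 23.8%.

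**Figure D1:**
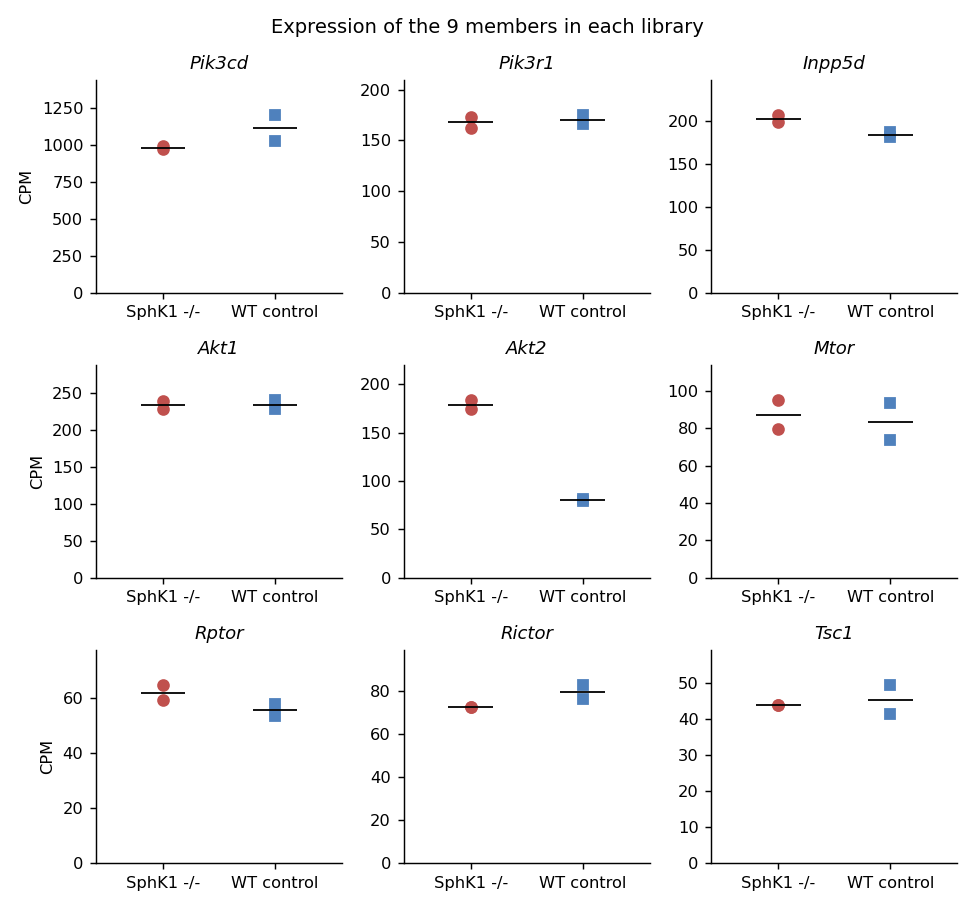
Normalised counts (CPM) for the 9 members in each library. Circles are the 2 libraries labelled SphK1 -/- and squares the 2 WT control libraries, bars are group means, and every axis starts at 0. Akt2 stands at 183 and 175 CPM in the libraries labelled SphK1 -/- and at 81.9 and 79.8 CPM in the WT control libraries, and no other panel shows as large a fold change.

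Pik3cd encodes p110δ, the catalytic PI3K subunit that predominates in lymphocytes, and it had the highest level of the members. It is on chromosome 4, from 149649168 to 149702571 (GRCm38, minus strand, GENCODE M21). It stood at 991.9 and 972.6 CPM in the libraries labelled SphK1 -/-, against 1030 and 1202 CPM in the WT control libraries. Both libraries labelled SphK1 -/- lay below both controls, but the controls differed from each other by 15.4% of their mean. The log2 fold change was −0.18 ± 0.14 (SE; adjusted p = 0.619 in edgeR), and without control 2 it was −0.062.

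Pik3r1 encodes p85α and shorter forms, the regulatory subunits that hold and stabilise p110 proteins. It lies on chromosome 13 from 101680563 to 101768217 (minus strand). Its values were 162.5 and 173.0 CPM in the libraries labelled SphK1 -/- and 174.9 and 165.9 CPM in the WT control libraries. The groups overlapped, with group means of 167.8 ± 7.45 CPM and 170.4 ± 6.32 CPM in the same order (SD, n = 2 each). The fold change was 0.985, with a 95% interval from 0.828 to 1.17 (adjusted p = 0.950 in edgeR).

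Inpp5d encodes SHIP1, a blood cell phosphatase that turns PIP3 into another phosphoinositide and restrains PI3K signalling. It lies on chromosome 1 from 87620312 to 87720507 (plus strand). It stood at 206.9 and 198.8 CPM in the libraries labelled SphK1 -/-, against 181.9 and 186.8 CPM in the WT control libraries. Both libraries labelled SphK1 -/- were above both controls by a small margin. The log2 fold change was 0.14 ± 0.11 (SE; adjusted p = 0.634 in edgeR) and did not pass the threshold. With library totals alone as the scaling, it was −0.10.

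The paralogues Akt1 and Akt2 encode the serine/threonine kinases that PIP3 recruits. In mice, Akt2 is known above all for insulin action and glucose uptake and Akt1 for growth. Akt1 lies on chromosome 12 from 112653821 to 112674884 (minus strand) and Akt2 on chromosome 7 from 27591552 to 27640826 (plus strand). Akt1 was level, at 228.8 and 240.1 CPM in the libraries labelled SphK1 -/- and 240.4 and 228.5 CPM in the WT control libraries. The groups overlapped, and the fold change was 1.00 with a 95% interval from 0.840 to 1.19 (adjusted p = 1.00 in edgeR).

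Akt2 held 8620 and 8477 reads in the libraries labelled SphK1 -/-, against 3848 and 4003 reads in the WT control libraries. These counts were 183.4 and 174.5 CPM against 81.9 and 79.8 CPM, with group means of 179.0 ± 6.25 CPM and 80.9 ± 1.51 CPM (SD, n = 2 each). The groups stood far apart and each was tight, with differences of 4.93% and 2.64% of the mean within them. Akt2 rose 2.21-fold (95% interval 1.87 to 2.62; log2 fold change 1.15 ± 0.11, SE; adjusted p = 0.00014 in edgeR). It passed under all 11 alternatives in which it could be tested, with log2 fold changes from 0.91 to 1.196, and it was not among the single-copy genes of the remaining alternative.

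Akt2 differed from the other members in its sequence as well. Of its 7250 different 30-base words, 13.5% also occur in an annotated gene at another locus, against 0% to 1.08% for the other 8 members. The partner is Akt2-ps, a processed pseudogene on chromosome 11 from 16514533 to 16515981 (plus strand), which holds 977 of these words. Akt2 and Akt1 share 5 words. Aligned to the 1446 coding bases of Akt2, stop codon included, Akt2-ps covered all of them with 17 mismatches and 3 inserted bases, an identity of 98.8%. Akt1 was 78.3% identical over 1426 aligned bases. A 90-base stretch of Akt2, coding bases 1291 to 1380, is printed with its counterparts. Of the 90-base windows that align without gaps in all 3 sequences, it was the first with the most differences between Akt2 and Akt2-ps. In the Akt2 line capitals mark the bases that differ from Akt2-ps, and in the other lines those that differ from Akt2. All 3 are written from 5′ to 3′ on the coding strand, from the GENCODE M21 transcripts.
Akt2: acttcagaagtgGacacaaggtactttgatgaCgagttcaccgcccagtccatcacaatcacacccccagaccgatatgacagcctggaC
Akt2-ps: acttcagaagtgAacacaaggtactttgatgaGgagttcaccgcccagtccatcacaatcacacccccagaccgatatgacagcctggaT
Akt1: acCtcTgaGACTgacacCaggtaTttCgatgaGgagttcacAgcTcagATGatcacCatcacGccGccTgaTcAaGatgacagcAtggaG

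The pseudogene differed from Akt2 at 3 of these 90 bases and Akt1 at 24. The stretch spans chr7:27637119-27638075 in Akt2 (plus strand, over 2 exons), chr11:16515826-16515915 in Akt2-ps (plus strand) and chr12:112654764-112655202 in Akt1 (minus strand), all in GRCm38. The longest run without a difference between Akt2 and Akt2-ps was 221 bases, from coding base 766 to 986. Of all 50-base windows of the Akt2 coding sequence, 51.3% had no mismatch to the pseudogene and 98.3% had at most 2. Of all 100-base windows, 22.5% had no mismatch and 90.2% had at most 2. Inserted bases of the pseudogene were not counted as differences, so these shares are upper values. The sources used here give neither the read length nor the handling of reads that match several places.

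**Figure D2:**
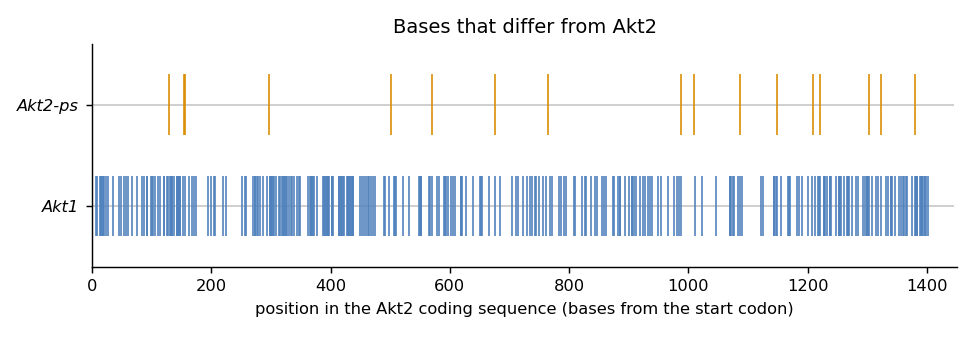
Positions along the 1446 coding bases of Akt2, counted from the start codon, at which the pseudogene Akt2-ps (upper row) or Akt1 (lower row) holds another base. Each line is 1 differing base. Akt2-ps has 17 and Akt1 has 309, over the 1426 bases that could be aligned for Akt1, and inserted bases are not drawn.

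The calls were also counted by the share of words held in common. Of the 458 tested genes that share over 10% and up to 20% of their words, as Akt2 does, and have at most 10% of their exons under another gene, 33.4% rose and 0.655% fell. Akt2 itself is among the 458. Their median log2 fold change was 0.33, and 100 of them, Akt2 included, had a log2 fold change at or above that of Akt2. Of the 9084 tested genes with no more than 5% of their words shared and no more than 10% of their exons overlapped, termed single-copy genes, 1.46% rose and 0.484% fell in the same test. Akt2-ps had no entry under that name among the deposited counts. The part of the pseudogene in the rise of Akt2 was not tested, and a difference in counting between the groups cannot be told apart from genotype. The value of Akt2 is therefore uncertain, while the other 8 members are single-copy genes. None of those 8 passed in a fit on single-copy genes alone, in which the lowest adjusted p among them was 0.712 (edgeR) and 0.780% of 9106 genes passed.

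Mtor encodes the kinase shared by both mTOR complexes. It lies on chromosome 4 from 148448611 to 148557683 (plus strand). Its values were 79.6 and 94.96 CPM in the libraries labelled SphK1 -/- and 73.5 and 93.5 CPM in the WT control libraries. The groups overlapped, and Mtor had the widest spread within groups of the 9 members, at 17.5% and 23.9% of the mean. The fold change was 1.05, with a 95% interval from 0.827 to 1.32 (adjusted p = 0.893 in edgeR).

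Rptor and Rictor encode raptor and rictor, the scaffold proteins that define mTORC1 and mTORC2. Rptor lies on chromosome 11 from 119602905 to 119899576 (plus strand), and an antisense gene, Rptoros, covers 0.624% of its exons. Rictor lies on chromosome 15 from 6708379 to 6800401 (plus strand). Rptor stood at 59.2 and 64.7 CPM in the libraries labelled SphK1 -/-, against 53.4 and 57.8 CPM in the WT control libraries. Both libraries labelled SphK1 -/- were above both controls, and the log2 fold change was 0.16 ± 0.11 (SE; adjusted p = 0.610 in edgeR). Rictor stood at 72.2 and 72.6 CPM in the libraries labelled SphK1 -/-, against 76.3 and 82.5 CPM in the WT control libraries. It lay the other way, below both controls, with a log2 fold change of −0.13 ± 0.11 (SE; adjusted p = 0.651 in edgeR). Neither passed the threshold. With library totals alone, a scaling that puts the median over all genes at −0.26 (log2), Rptor was at −0.085, and Rictor was at −0.37 and passed (adjusted p = 0.0489).

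Tsc1 encodes hamartin, which stabilises Tsc2 in the complex that holds Rheb inactive. It lies on chromosome 2 from 28641228 to 28691167 (plus strand). It stood at 43.9 CPM in both libraries labelled SphK1 -/-, against 41.5 and 49.3 CPM in the WT control libraries. The controls enclosed both other values. The fold change was 0.968, with a 95% interval from 0.792 to 1.18 (adjusted p = 0.907 in edgeR).

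Levels can be compared between genes only per length, here as CPM per kilobase of annotated exon. In the libraries labelled SphK1 -/- the order was Pik3cd (155.4 to 158.5), Akt1 (55.8 to 58.6), Inpp5d (26.2 to 27.2), Akt2 (24.5 to 25.7), Pik3r1 (16.1 to 17.2), Mtor (7.88 to 9.39), Rptor (4.40 to 4.80), Rictor (4.27 to 4.29) and Tsc1 (3.71 in both). In the WT control libraries it was Pik3cd (164.5 to 192.0), Akt1 (55.8 to 58.7), Inpp5d (23.9 to 24.6), Pik3r1 (16.5 to 17.3), Akt2 (11.2 to 11.5), Mtor (7.27 to 9.25), Rictor (4.51 to 4.87), Rptor (3.96 to 4.29) and Tsc1 (3.50 to 4.17). Akt2 thus ranked above Pik3r1 in the libraries labelled SphK1 -/- and below it in the controls, an order that shares the uncertainty of Akt2. Rptor and Tsc1 overlapped in the controls, and no other neighbours in either order did. The catalytic subunit was the most abundant member in every library, and the TSC subunit Tsc1 the least abundant in every library. With the longest transcript as the length, Rptor also led Rictor in the libraries labelled SphK1 -/- (9.39 against 7.78), and they stood at 8.43 and 8.53 in the controls.

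A ratio of 2 genes within a library does not depend on how libraries are scaled. For the 5 such ratios of counts per kilobase that were computed, of which 4 are given, the smallest p that the two-sided exact permutation test can give with 2 libraries a group is 0.333. Akt1 to Akt2 was 2.17 and 2.39 in the libraries labelled SphK1 -/-, against 5.11 and 4.98 in the WT control libraries. Akt1 was the more abundant kinase transcript in every library, but by a smaller factor under the SphK1 -/- label. The log2 difference was −1.15 (exact permutation p = 0.333, adjusted over the 5 ratios 0.417), and it shares the uncertainty of Akt2. Rptor to Rictor was 1.03 and 1.12 in the libraries labelled SphK1 -/-, against 0.879 and 0.881 in the controls. Raptor transcripts exceeded rictor transcripts per length under the SphK1 -/- label and not in the controls, with a log2 difference of 0.29 (exact permutation p = 0.333, adjusted 0.417). It was between 0.23 and 0.35 when each library was left out in turn.

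Pik3cd to Pik3r1 was 9.83 and 9.05 in the libraries labelled SphK1 -/- and 9.48 and 11.7 in the WT control libraries, so the groups overlapped (exact permutation p = 0.667). Tsc1 to Tsc2 was 0.522 and 0.503 in the libraries labelled SphK1 -/-, against 0.534 and 0.563 in the controls. It differed by −0.098 on the log2 scale (exact permutation p = 0.333, adjusted 0.417).

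**Figure D3:**
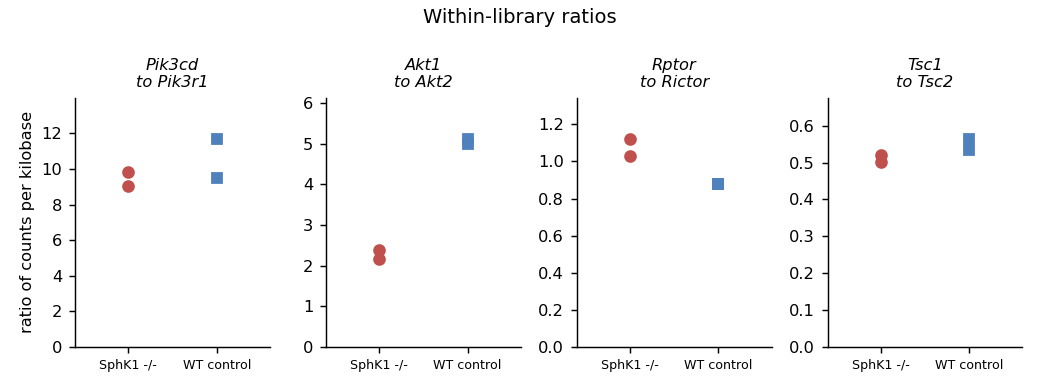
Ratio of counts per kilobase of exon between 2 genes of the same library, for 4 pairs. Circles are the 2 libraries labelled SphK1 -/- and squares the 2 WT control libraries, and every axis starts at 0. Akt1 to Akt2 is 2.17 and 2.39 against 5.11 and 4.98, and Pik3cd to Pik3r1 overlaps between the groups.

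Around the members, 72 other genes of the pathway were listed by 7 roles, and all were tested. 5 of them rose and none fell in edgeR. At an unadjusted p below 0.05, 12 of the 72 were higher and 0 lower, against 10.5% and 4.38% of all tested genes. DESeq2 called 8 of them higher and 0 lower, against 7.05% and 1.12% of all tested genes. Their median log2 fold change was −0.0085, with 35 above and 37 below 0, against a median of −0.021 over all tested genes, of which 6.0% rose. The 5 were Inpp4b, Lamtor3, Lamtor5, Eif4e and Rps6. Of the 10 listed genes with over 5% shared words 4 rose, against 31.3% of all 1939 tested genes of that kind. Of the 62 with 5% or less 1 rose, against 1.45% of 10736 such genes. In the fit on single-copy genes, 1 of 55 listed genes passed.

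That gene was Inpp4b, whose product removes a phosphate from the phosphoinositide that SHIP1 makes. It stood at 231.9 and 303.8 CPM in the libraries labelled SphK1 -/-, against 61.8 and 102.2 CPM in the WT control libraries. The groups did not overlap, although each was spread. Inpp4b rose 3.27-fold (95% interval 2.26 to 4.72; adjusted p = 0.0017 in edgeR), and its adjusted p among single-copy genes was 0.0197. It shares 0% of its words and no other gene covers its exons. It passed under all 12 alternatives, with log2 fold changes from 1.42 to 2.12. It was the 1 of 6 listed phosphatases that passed in edgeR, while 2 had an unadjusted p below 0.05 and DESeq2 called 2. Over all tested genes 10.5% were higher and 4.38% lower at that unadjusted p, and DESeq2 called 7.05% higher and 1.12% lower. The log2 fold changes of Inpp5d (0.14) and Inpp4a (−0.078, adjusted p = 0.888) did not pass in edgeR. The summed markers of B, natural killer and macrophage cells were also higher in 1 or both libraries labelled SphK1 -/-. Eomes made up most of the natural killer sum and Cd68 most of the macrophage sum. Eomes did not pass in edgeR, while Klre1 of the natural killer list (log2 fold change 1.93) and Cd68 (1.08) did. The part of such cells in the rise of Inpp4b was not tested.

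The other 4 risers share words with processed pseudogenes. Eif4e, which encodes the cap-binding protein that mTORC1 releases from its inhibitors, stood at 180.3 and 220.4 CPM in the libraries labelled SphK1 -/-, against 90.01 and 80.6 CPM in the WT control libraries (adjusted p = 0.00039 in edgeR). Lamtor3 and Lamtor5, subunits of the Ragulator complex that anchors mTORC1 at the lysosome, rose by 0.91 ± 0.14 and 0.72 ± 0.13 on the log2 scale (SE; adjusted p = 0.0044 and 0.0081 in edgeR). Rps6, the ribosomal protein that S6 kinase phosphorylates, held 146591 and 148348 reads in the libraries labelled SphK1 -/-, against 727 and 651 in the controls. Their pseudogene partners were Gm7327 for Eif4e (98.9% identical over the aligned bases), Gm5900 for Lamtor3 (99.5%), Gm15190 for Lamtor5 (97.8%) and Rps6-ps4 for Rps6 (100%, all 750 coding bases). None of these pseudogenes had an entry under its name among the deposited counts. As with Akt2, the part of these copies was not tested and the values are uncertain.

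Eif4e, Lamtor3 and Lamtor5 were the 3 genes, among 80 candidates of the pathway, whose log2 CPM profile over the 4 libraries lay nearest to that of Akt2. With 2 libraries a group, this distance mostly restates the size of the fold change. It is thus not a separate finding from the calls above. The root mean square distances of the centred profiles were 0.14, 0.15 and 0.23 on the log2 scale. All 3 share over 5% of their words.

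**Figure D4:**
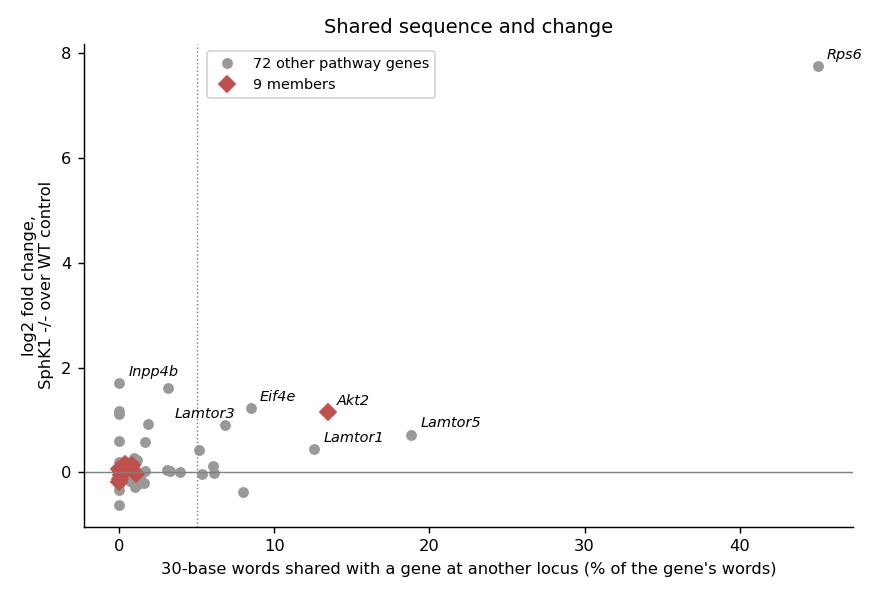
Share of the 30-base words of a gene that occur in a gene at another locus (horizontal, percent) against its log2 fold change, libraries labelled SphK1 -/- over WT control (vertical), for the 9 members (diamonds) and the 72 other pathway genes (circles). The dotted line marks 5%. Akt2 is the only diamond to the right of it, at 13.5% and 1.15, and Rps6 stands at 45.0% and 7.76.

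In each role the gene with the lowest unadjusted p was also examined. The counts by role stand against all tested genes, of which 10.5% were higher and 4.38% lower at an unadjusted p below 0.05. DESeq2 called 7.05% of them higher and 1.12% lower. Among PI3K subunits and adaptors none of 9 passed in edgeR or DESeq2, and 1 had an unadjusted p below 0.05. Pik3r6, a regulatory subunit of the PI3K that serves G protein-coupled receptors, stood at 11.1 and 3.97 CPM in the libraries labelled SphK1 -/-, against 3.64 and 3.29 CPM in the controls (adjusted p = 0.238 in edgeR). Its difference rested on the first library labelled SphK1 -/-: without it the log2 fold change was 0.20, against 1.12 with it. That library also held the highest sums of B cell, natural killer and macrophage markers. In it, Eomes alone held 57.9 of the 79.0 CPM of the natural killer sum. Cd68 alone held 22.2 of the 24.6 CPM of the macrophage sum. Between the groups, Klre1 (log2 fold change 1.93) and Cd68 (1.08) of these lists passed in edgeR. Ncr1 (1.18), Klrb1c (0.92), Eomes (0.50), Cd14 (1.46), Lyz2 (0.33) and Csf1r (0.064, at 17 or 18 reads in each library) did not. The part of such cells in the difference of Pik3r6 was not tested. Among AKT partners none of 5 passed in edgeR, while 1 had an unadjusted p below 0.05 and DESeq2 called 1. Sgk1, an AKT-related kinase downstream of mTORC2, stood at 39.6 and 23.9 CPM against 19.6 and 13.9 CPM in the controls (log2 fold change 0.92, adjusted p = 0.0805 in edgeR). It passed in 4 of 12 alternatives: with the replicate block, with DESeq2, without the second library labelled SphK1 -/- and without control 1. The adjusted p ranged from 0.00044 to 0.536 over all 12.

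Among further subunits of the mTOR complexes and their assembly factors none of 9 passed in edgeR or DESeq2, and 1 had an unadjusted p below 0.05. Deptor, an inhibitor of mTOR, held 46 and 68 reads in the libraries labelled SphK1 -/-, against 13 and 25 in the controls (log2 fold change 1.61 ± 0.44, SE; adjusted p = 0.0779 in edgeR). It passed with the replicate block (adjusted p = 0.0307, the lowest of a range up to 0.384 over its 12 alternatives). Among the TSC complex, Rheb and stress inputs none of 5 passed in edgeR or DESeq2, and 0 had an unadjusted p below 0.05. Ddit4, a stress-induced inhibitor of mTORC1 that acts through the TSC complex, stood at 421.9 and 468.5 CPM against 387.1 and 389.7 CPM in the controls (log2 fold change 0.20, adjusted p = 0.526 in edgeR). Of the 28 genes of amino acid sensing, Lamtor3 and Lamtor5 passed in edgeR. At an unadjusted p below 0.05, 5 of the 28 were higher and 0 lower, against 10.5% and 4.38% of all tested genes. DESeq2 called 3 of them higher and 0 lower, against 7.05% and 1.12% of all tested genes. Of the 10 substrates and outputs of mTORC1, Eif4e and Rps6 passed in edgeR, 2 had an unadjusted p below 0.05 and DESeq2 called 2.

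**Figure D5:**
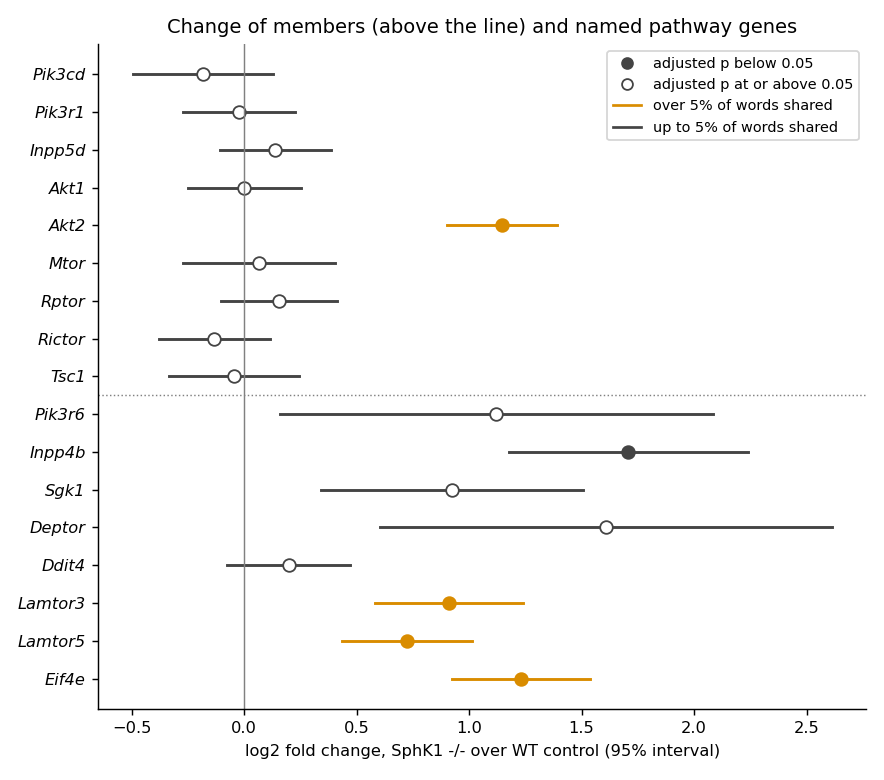
Log2 fold change with its 95% interval (horizontal), libraries labelled SphK1 -/- over WT control, for the 9 members above the dotted line and 8 named pathway genes below it. Filled points have an adjusted p below 0.05 in edgeR, and orange marks genes with over 5% shared words. Rps6, at 7.76, lies outside the range drawn. Akt2 is the only filled point among the members, and Inpp4b the only filled point that is not orange.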

How the data were processed

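The authors deposited counts per gene for the 4 libraries, which were assumed to be raw. The build GRCm38 and the tools TopHat2 2.0.13, HTSeq 0.6.1p1, cutadapt 1.11 and DESeq2 1.14.1 appear in the submitters' processing notes. The sources used here state neither their roles nor the annotation nor the strand setting, so overlapping and antisense genes cannot be told apart. Of 23419 entries, 27 named as dates (0.261% to 0.312% of counts) and 720 without a name (with no value under the SphK1 -/- label, and 1.13% and 1.17% of counts in controls) were left out.

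Genotypes were compared with edgeR 4.0.16 in R 4.3.3 (TMM, filterByExpr with minimum count 10, genotype alone as covariate). SE is the absolute log2 fold change over the square root of F. DESeq2 1.42.0, limma 3.58.1 and other settings were alternatives, and the test was tested on simulated data. Lengths, overlaps and 30-base words of either strand came from GENCODE M21, with overlapping genes taken as 1 locus, and 22380 named genes were matched. Intervals cover the spread between libraries. All members had at least 1948 reads in each library.

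Members and lists were chosen with earlier results of these data known. Besides the members, the rule named Sphk1, pathway genes past the threshold, the lowest unadjusted p in each role and the 3 profiles nearest to the leading member. Inpp4a was added after its values were seen. 1 of the 5 ratios computed is not reported here.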

Additional observations from a re-analysis of the deposited data

How the results depend on the processing

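Akt2 and the 5 listed genes that passed kept their direction and call under each alternative in which they were tested. With library totals alone, 2 members passed in place of 1 (Akt2 higher, Rictor lower at −0.37, adjusted p = 0.0489), 9 listed genes in place of 5 (5 higher, 4 lower) and 2084 of all genes in place of 861 (652 higher, 1432 lower). That scaling also turned Inpp5d to −0.10, Mtor to −0.18, Rptor to −0.085 and Ddit4 to −0.044. Among single-copy genes, 0 members (of 8), 1 listed gene and 71 genes in all passed. There Pik3r1 was at 0.015 and Akt1 at 0.037. Akt1 was at 0.0088 with RLE size factors and with DESeq2, which called 8 listed genes and 1042 of all genes. The replicate number gave no pairing (correlation of deviations −0.059 over 11073 genes). As a replicate block it gave 9 listed genes, 1 member and 1120 genes in all.

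With each library left out in turn, 1 member passed each time, 5 to 8 listed genes and 732 to 1055 of all genes, where a lone sample is assumed to vary like the other group. The log2 fold changes then ranged from −0.070 to 0.046 for Pik3r1, −0.037 to 0.067 for Akt1, −0.070 to 0.25 for Mtor and −0.14 to 0.089 for Tsc1. The 8 listed genes came without control 1 or without the second library labelled SphK1 -/-. For Sphk1 the adjusted p ranged from 0.0051 to 0.239 over 12 alternatives. The causes were not tested.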
